A study of Mus musculus with 7 samples.

Results

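The genes described here are 34 genes whose products act in G2 and mitosis, from the cyclins that start chromosome condensation to the proteins that cut the dividing cell apart. They were chosen by name, as the rows of the deposited count table whose gene symbol equals a member, and all 34 were found among the 38293 genes of that table. RNA was sequenced from scrapings of the ileum of male C57BL/6NRJ mice. The scraped material was the mucosa, so that lamina propria came along with the epithelium while muscle was meant to stay behind. The mice were 8 weeks old, stayed 1 week on the control diet and then received their diet for 2 weeks before a fast of 4 h. Both groups ate a purified AIN93-G diet that was low in calcium and drew 40% of its energy from fat. For the normal cys group (n = 4, libraries X17SI4, X32SI4, SI9 and X1SI4) this diet held 0.38% cystine, and for the low cys group (n = 3, libraries X23SI4, X26SI4 and X10SI4) the added cystine was replaced by alanine, which left 0.08%. The comparison asks whether the expression of mitotic genes in the small intestine differs between these diets. For the tissue label, 0 of 10 enterocyte markers and 0 of 8 Paneth cell markers were at 0 in any library. The same held for the B cell, T cell and smooth muscle markers, so counts above 0 do not tell tissues apart.

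In the small intestine, dividing cells lie in the crypts, where stem cells and their early offspring cycle before they leave for the villus and stop dividing. Cyclin B with its kinase CDK1 drives entry into mitosis, kinetochores attach chromosomes to the spindle, and the spindle checkpoint holds the anaphase-promoting complex (APC/C) back until every chromosome is attached. The APC/C then marks cyclin B for destruction, and the central spindle and a contractile ring divide the cell. The mRNAs of most of these genes are made late in the cell cycle and are low in cells that have left it. In bulk tissue, fewer cycling cells and less mRNA per cell cannot be told apart.

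A shared feature that played no part in choosing the genes was the sequence at their starts. Promoters of late cell cycle genes are known for the cell cycle genes homology region (CHR) and for CCAAT boxes, which bind NF-Y. The CHR is a site for the DREAM and B-MYB complexes, and its core often reads TTTGAA. RefSeq promoter windows (GRCm38.p6, 250 bases before to 50 after a start) were given for 29 of the 34 genes, in 31 windows, and were not given for Aurkb, Ccna2, Incenp, Kif20a and Tpx2. Searched on both strands, TTTGAA stood in 25 of the 31 windows (80.6%) against 17.9% of all 32851 windows. CCAAT was found in 25 of the 31 (80.6%) against 37.4%, and both together in 22 (71%) against 6.95%. Of the 32 TTTGAA matches, 23 began within 40 bases of the start and 25 were on the strand of the gene. The median first base of the 32 was at position 3, where 1 is the first base transcribed from the RefSeq start. The 61 CCAAT matches lay further upstream, with a median at position -68. In 20 of the 31 windows, bases 1 to 40 lay in a GENCODE M21 transcript of the gene on its strand. In the other windows they did not, so positions there hold for the RefSeq start only. Matches were counted by window, and since Ect2 and Prc1 each have overlapping windows, they stand for 29 distinct TTTGAA and 57 distinct CCAAT sites. By gene, 20 held both motifs, 3 (Anln, Kif2c and Ndc80) TTTGAA without CCAAT, 3 (Bub1, Ccnb1 and Cenpe) CCAAT without TTTGAA, and 3 (Birc5, Nuf2 and Nusap1) neither. These are matches of letters in a window. Only the exact letters were searched, so a gene without a match may still hold a variant of the site. Binding was not measured, and the base composition of the windows was not compared.

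Stretches of 150 bases from 8 of the windows follow, 5′ to 3′ on the strand of the gene, to show where the motifs lie in genes of different mitotic roles. Capitals mark TTTGAA, and CCAAT or its reverse complement ATTGG. The stretch of Mki67 covers positions -200 to -51 (chr7:135716430-135716579, minus strand) and the others cover -120 to 30, all on minus strands: Ccnb2 at chr9:70421525-70421674, Cdk1 at chr10:69352883-69353032, Cdc20 at chr4:118437314-118437463, Cdca8 at chr4:124936888-124937037, Cenpf at chr1:189688057-189688206, Kif23 at chr9:61946770-61946919 and Ect2 at chr3:27153825-27153974. In Cdca8 the TTTGAA and a reversed CCAAT overlap.
Mki67: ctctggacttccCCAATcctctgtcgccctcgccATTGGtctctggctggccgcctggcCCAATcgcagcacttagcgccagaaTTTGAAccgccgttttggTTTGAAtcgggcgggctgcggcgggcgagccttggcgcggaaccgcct
Ccnb2: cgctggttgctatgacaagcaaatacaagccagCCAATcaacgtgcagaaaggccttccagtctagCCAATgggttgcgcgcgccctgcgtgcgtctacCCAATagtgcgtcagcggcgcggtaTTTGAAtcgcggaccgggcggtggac
Cdk1: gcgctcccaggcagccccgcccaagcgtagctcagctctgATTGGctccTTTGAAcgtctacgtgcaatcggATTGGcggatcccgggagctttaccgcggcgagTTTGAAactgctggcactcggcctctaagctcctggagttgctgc
Cdc20: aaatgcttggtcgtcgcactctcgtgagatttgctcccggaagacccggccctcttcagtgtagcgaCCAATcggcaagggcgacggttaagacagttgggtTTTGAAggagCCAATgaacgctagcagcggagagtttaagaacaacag
Cdca8: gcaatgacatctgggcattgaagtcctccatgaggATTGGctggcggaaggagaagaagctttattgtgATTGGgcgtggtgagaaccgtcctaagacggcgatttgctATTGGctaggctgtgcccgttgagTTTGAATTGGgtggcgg
Cenpf: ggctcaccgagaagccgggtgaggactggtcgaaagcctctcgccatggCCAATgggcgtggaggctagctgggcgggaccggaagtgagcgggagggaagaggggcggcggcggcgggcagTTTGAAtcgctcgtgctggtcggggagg
Kif23: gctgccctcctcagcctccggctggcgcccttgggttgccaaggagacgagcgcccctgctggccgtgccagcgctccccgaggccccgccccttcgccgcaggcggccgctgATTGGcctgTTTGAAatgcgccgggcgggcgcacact
Ect2: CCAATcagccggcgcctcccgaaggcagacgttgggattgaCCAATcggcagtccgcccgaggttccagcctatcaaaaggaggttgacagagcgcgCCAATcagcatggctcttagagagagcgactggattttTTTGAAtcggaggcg

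In Cenpf and Kif23 the TTTGAA began at position 3, in Ccnb2 at 5 and in Ect2 at 16, just after the RefSeq start. Further matches lay upstream of the printed stretches, at -167 in Ccnb2 and -138 in Ect2, and counted from a second RefSeq start of Ect2 its matches lay at -114 and 40. Cdc20 carried it at -18, and Cdk1 carried it at -71 and again at -15. Mki67 had its pair of matches further upstream, at -116 and -98, downstream of 3 CCAAT matches at -188, -166 and -141.

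Mki67 and Birc5 were also measured by qRT-PCR in the study, and their primers are shown because they say which part of each transcript that assay read. Both Mki67 primers lie in coding sequence of exon 12 of 14 (GRCm38, chr7:135698862-135698881 and chr7:135698704-135698723), and span 178 bases. The Birc5 primers lie in coding sequence of exon 1 (chr11:117849390-117849409) and exon 2 (chr11:117849826-117849845), with 164 bases of transcript between their outer ends.
Mki67 forward: gccataacccgaaagagcag
Mki67 reverse: ccagtttacgctttgcaggt
Birc5 forward: ctcaagaactaccgcatcgc
Birc5 reverse: tcccagccttccaattcctt

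The normal cys libraries held 19712355 to 22412703 counts and the low cys libraries 14888760 to 21942518. Of these, 4530 to 20507 counts per library fell on the 34 genes, and the smallest count of a member was 19, for Ndc80 in X1SI4. All 34 genes were among the 14869 that passed the filter on low counts. Levels are given as CPM, counts per 1000000 counts of the library size after TMM scaling. The test of the diets was the quasi-likelihood test of edgeR. Its p-values were corrected over all genes tested (Benjamini-Hochberg), and they treat each library as a mouse of its own, which the labels do not state. Exact permutation tests (two-sided, on the difference of mean CPM) cover the 35 ways to label 3 of 7 libraries and cannot give a p below 0.0286.

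The mitotic genes had a higher mean upon cystine restriction in every case, but the libraries of the diets overlapped in every case too. The log2 fold change of low cys over normal cys was above 0 in 34 of 34 genes, with a median of 0.62 and a range of 0.32 (Cdca8) to 1.07 (Bub1). Over all genes tested 51.2% had a log2 fold change above 0, and the median was 0.01. These 34 estimates are not independent, because the genes varied together from mouse to mouse. None of the 34 had an adjusted p under 0.05 in edgeR (0 of 34, against 0% of all genes tested), and the smallest adjusted p was 0.794. At an unadjusted p under 0.05, 4 of 34 were higher upon cystine restriction, namely Ect2, Spc25, Anln and Bub1, against 2.66% of all genes tested, and 0 of 34 were lower, against 2.83%. In GRCm38 these genes lie at chr3:27097222-27153878 (Ect2), chr2:69193895-69206194 (Spc25), chr9:22331214-22389206 (Anln) and chr2:127801122-127831865 (Bub1), and Mki67 lies at chr7:135689788-135716379, all on minus strands. With DESeq2, the tool of the study, 0 of 34 had an adjusted p under 0.05 (smallest 0.552). At an unadjusted p under 0.05, 5 of 34 were higher in DESeq2, against 2% of 22778 genes. That fit had no filter on low counts, so its 2% also covers genes left out of edgeR and is not like the 2.66%. The low cys libraries lay all above the normal cys libraries in 0 of 34 genes, against 3.32% of all genes tested, and all below in 0 of 34, against 3.51%.

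**Figure D1:**
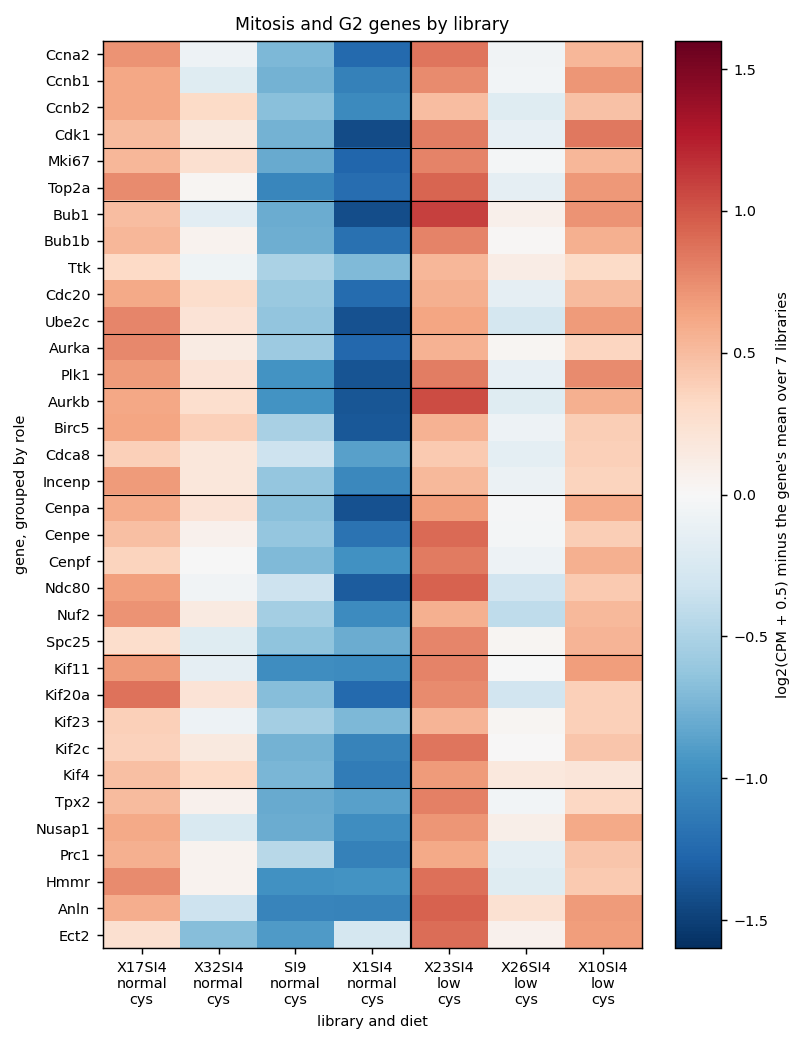
Each cell shows log2(CPM + 0.5) of 1 gene (row) in 1 library (column) minus the mean of that gene over the 7 libraries, with thin lines between roles and a thick line between the diets. Columns SI9 and X1SI4 are blue throughout, X17SI4, X23SI4 and X10SI4 are red throughout, and X26SI4 lies nearer to the mean.

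The genes varied together across mice, and the order of the libraries was nearly the same in each. X1SI4 was the lowest of the 7 libraries in 32 genes and SI9 in the other 2 (Hmmr and Ect2), and SI9 was among the lowest 2 in 34 of 34. At the other end, X23SI4 was highest in 25 genes, X17SI4 in 8 and X10SI4 in 1 (Cdk1). A normal cys mouse, X17SI4, was thus above the mean of the low cys libraries in 26 of 34 genes, and it was above X26SI4 in 34, above X10SI4 in 24 and above X23SI4 in 8. X26SI4 was the lowest of the low cys libraries in 34 of 34. Summed over the 34 genes, the normal cys libraries held 751 (X17SI4), 527 (X32SI4), 290 (SI9) and 216 (X1SI4) CPM, and the low cys libraries 836 (X23SI4), 466 (X26SI4) and 721 (X10SI4). The means were 446 ± 243 (SD, n = 4) and 674 ± 190 (SD, n = 3), a ratio of 1.51.

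Within the normal cys group alone the highest library was 3.52-fold above the lowest in the median gene (range 2.2 for Kif23 to 5.58 for Ndc80). Within the low cys group this spread was 1.77-fold (range 1.37 for Ttk to 2.66 for Ndc80). For all 14778 genes tested that had a count in every library, the medians were 1.62-fold and 1.3-fold. The mitotic genes thus spread more between mice on the same diet than the median gene did. The groups hold unequal numbers of mice, so these spreads are not directly comparable.

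Among the cyclins and their kinase, the log2 fold change ran from 0.34 (Ccnb2) to 0.79 (Cdk1), with 0 of 4 past an unadjusted p of 0.05. Over all genes tested, 2.66% were higher and 2.83% lower at that p, and these shares stand beside the role counts below too. Ccnb1 encodes cyclin B1, the main mitotic partner of CDK1. Its level was 17.3, 9.62, 6.36 and 4.96 CPM in normal cys libraries X17SI4, X32SI4, SI9 and X1SI4, and 19, 10.7 and 18.3 CPM in low cys libraries X23SI4, X26SI4 and X10SI4. The values below keep this order of libraries. X17SI4 lay between the low cys libraries and the other 3 normal cys libraries lay below them. Between the diets, Ccnb1 differed by a log2 fold change of 0.74 (SE 0.41, adjusted p = 0.794 in edgeR, exact permutation p = 0.143). Part of the Ccnb1 reads cannot be placed with certainty, since 23.4% of the 50-base stretches of its transcripts also occur in other genes, Ccnb1-ps among them.

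Ccnb2, for the second B-type cyclin, had 20.4, 16.4, 8.09 and 6.25 CPM on the normal and 18.8, 11.4 and 18.4 CPM on the low cystine diet. Here the highest library was a normal cys library. Its log2 fold change of 0.34 (SE 0.40, adjusted p = 0.838 in edgeR, exact permutation p = 0.457) was smaller than its standard error. Ccna2, the cyclin of S phase and G2, and Cdk1 itself had log2 fold changes of 0.65 (SE 0.44) and 0.79 (SE 0.46). Ccna2 exons overlap those of Exosc9 on the other strand over 14.6% of their bases, and the strand setting of the counting is not given in the sources used here.

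Mki67 encodes Ki-67, which coats mitotic chromosomes and serves as the standard marker of cycling cells, and its CPM, which is not corrected for gene length, exceeded that of the other 33. It had 107, 88.3, 41.9 and 30.4 CPM on the normal and 128, 72.4 and 107 CPM on the low cystine diet. X17SI4 and X32SI4 reached the range of the low cys libraries and SI9 and X1SI4 lay below it. The means were 66.9 ± 36.7 (SD, n = 4) for normal cys and, for low cys, 102 ± 27.8 (SD, n = 3), a 1.53-fold difference with a log2 fold change of 0.61 (SE 0.42, adjusted p = 0.794 in edgeR, exact permutation p = 0.257). The 95% interval of -0.36 to 1.58 includes 0 as well as large differences, so the missed threshold does not show that the diets were alike. Top2a, the topoisomerase that untangles sister chromosomes, had 81, 48.6, 22.9 and 20.3 CPM against 91.2, 43 and 77.7 CPM. It kept the order of libraries seen for Mki67, and its log2 fold change was 0.71 (SE 0.48, adjusted p = 0.794 in edgeR, exact permutation p = 0.257).

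**Figure D2:**
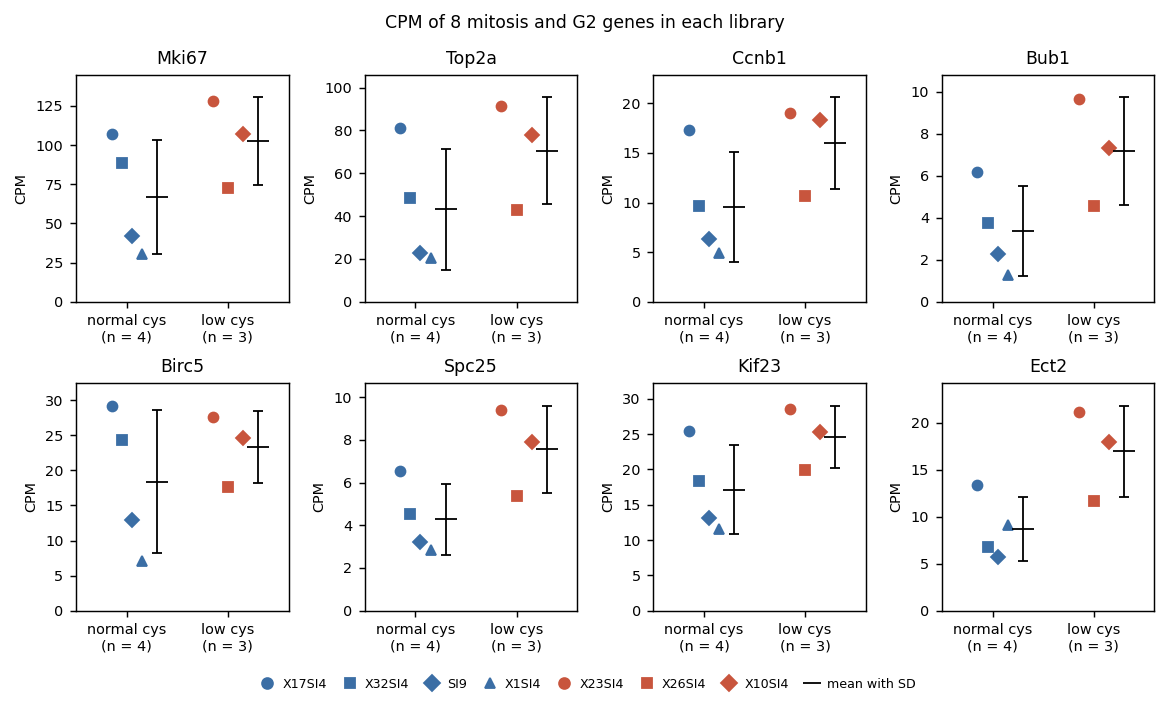
CPM of 8 of the genes in each library (points, blue for normal cys and red for low cys, with a shape for each library), and the mean with SD of each diet (black). In each panel at least 1 normal cys library lies within the range of the low cys libraries or above it, and SI9 and X1SI4 lie low except for X1SI4 in Ect2.

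For the 5 genes of the spindle checkpoint and the APC/C the median log2 fold change was 0.58, below the 0.62 of all 34. A single gene of this role, Bub1, had the largest estimate among the 34. Bub1, a kinase that loads the checkpoint onto kinetochores, had 6.21, 3.77, 2.26 and 1.29 CPM against 9.67, 4.56 and 7.34 CPM. Only X17SI4 reached into the low cys range. Its log2 fold change was 1.07 (SE 0.47, 95% interval 0.00 to 2.14), with an unadjusted p of 0.0497 and an adjusted p of 0.794 in edgeR, and an exact permutation p of 0.114. Ube2c, the ubiquitin-conjugating enzyme of the APC/C, had the largest p of this group. It had 34.5, 23.3, 12.6 and 7.26 CPM against 31, 16.2 and 32.2 CPM, and X17SI4 was the highest library. Ube2c had a log2 fold change of 0.45 (SE 0.48, adjusted p = 0.834 in edgeR, exact permutation p = 0.429), and 22.8% of its exon bases overlap Tnnc2 on the other strand. The checkpoint kinases Bub1b and Ttk had log2 fold changes of 0.71 (SE 0.41) and 0.58 (SE 0.31), and Cdc20, the APC/C activator, 0.42 (SE 0.41). For Cdc20, 10.4% of the 50-base stretches occur in other genes.

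The kinases Plk1 and Aurka, which act at centrosomes and on the spindle, had 0 of 2 past an unadjusted p of 0.05. Plk1 had 16.9, 12.2, 5.1 and 3.68 CPM against 18.6, 9.43 and 17.8 CPM. Aurka had 16.7, 10.5, 6.25 and 3.72 CPM against 14.3, 9.8 and 12.3 CPM. In Aurka the normal cys library X17SI4 exceeded every low cys library, whereas in Plk1 it lay between them. Their log2 fold changes were 0.69 (SE 0.50, adjusted p = 0.798 in edgeR, exact permutation p = 0.257) for Plk1 and 0.38 (SE 0.43, adjusted p = 0.836, exact permutation p = 0.514) for Aurka. A pseudogene, Plk-ps1, shares 6.56% of the 50-base stretches of Plk1.

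The chromosomal passenger complex, which corrects faulty attachments and then moves to the central spindle, had the lowest median log2 fold change of the roles, 0.34. Its scaffold Incenp and its borealin subunit Cdca8 had log2 fold changes of 0.34 (SE 0.38) and 0.32 (SE 0.29). Birc5, for survivin, had 29.2, 24.4, 12.9 and 7.02 CPM against 27.7, 17.6 and 24.7 CPM. Its highest library was X17SI4, and the means were 18.4 ± 10.2 (SD, n = 4) for normal cys and 23.4 ± 5.2 (SD, n = 3) for low cys. Birc5 had a log2 fold change of 0.35 (SE 0.43, 95% interval -0.64 to 1.34, adjusted p = 0.848 in edgeR, exact permutation p = 0.457). Aurkb, the kinase of the complex, had 13.8, 10.7, 4.26 and 3.1 CPM against 18.7, 7.62 and 13.3 CPM. It had a larger estimate than its 3 partners, 0.73 (SE 0.52, adjusted p = 0.798 in edgeR, exact permutation p = 0.286), and also the widest standard error of the 34. The difference between Aurkb and its partners was not tested.

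**Figure D3:**
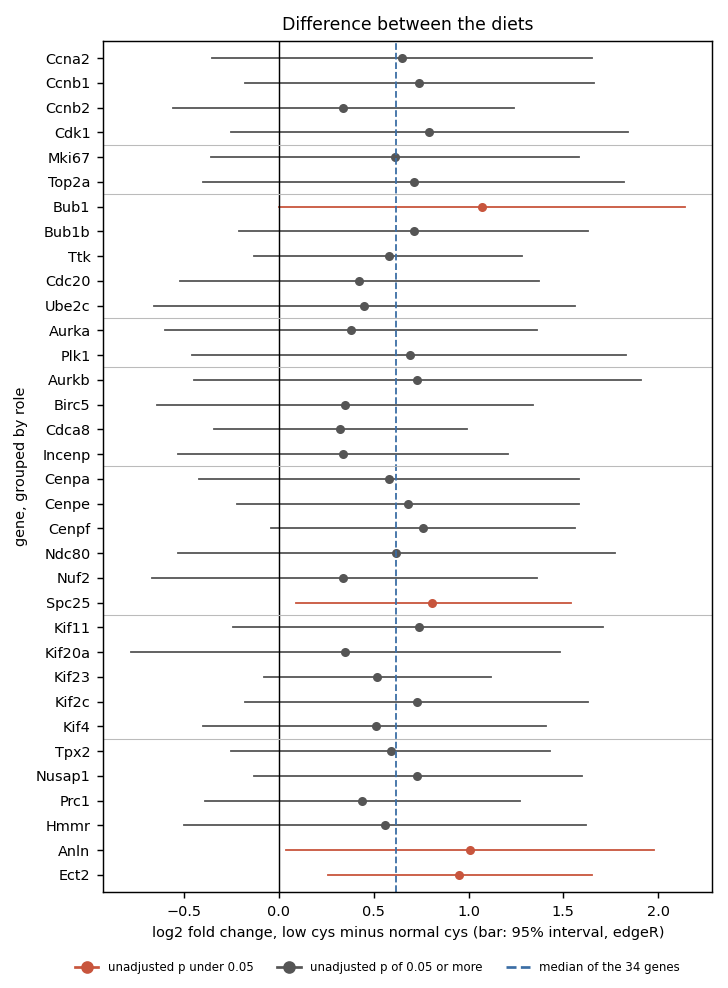
The log2 fold change of low cys over normal cys (points, edgeR) and its 95% interval (bars) for the 34 genes in the order of their roles, with the median of 0.62 as a dashed line. All points lie to the right of 0, and 4 bars, in red, belong to the genes with an unadjusted p under 0.05, of which that of Bub1 starts at 0.00.

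At the centromere and kinetochore, 1 of 6 genes was higher at an unadjusted p under 0.05, against 2.66% of all genes tested. Spc25, a subunit of the NDC80 complex that grips microtubules, had 6.53, 4.54, 3.2 and 2.82 CPM against 9.38, 5.37 and 7.92 CPM. X17SI4 lay above X26SI4, and the remaining normal cys libraries lay below all 3 low cys libraries. The log2 fold change of Spc25 was 0.81 (SE 0.32, 95% interval 0.09 to 1.54), with an unadjusted p of 0.0315 and an adjusted p of 0.794 in edgeR, and an exact permutation p of 0.114. Nuf2, from the same complex, had 7.94, 5.13, 2.99 and 2.05 CPM against 7.06, 3.37 and 6.83 CPM. In Nuf2 both X17SI4 and X32SI4 exceeded X26SI4, and the log2 fold change was 0.34 (SE 0.45, adjusted p = 0.853 in edgeR, exact permutation p = 0.514). The third subunit measured, Ndc80, had 0.62 (SE 0.51) at 19 to 155 counts per library. Cenpa, the histone that marks centromeres, the kinetochore motor Cenpe and Cenpf, a large kinetochore protein, had log2 fold changes of 0.58 (SE 0.44), 0.68 (SE 0.40) and 0.76 (SE 0.35).

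The kinesins had log2 fold changes of 0.35 to 0.74, with 0 of 5 past an unadjusted p of 0.05. Kif23, the motor of the centralspindlin complex, varied least between mice. It had 25.5, 18.3, 13.1 and 11.6 CPM against 28.6, 19.9 and 25.3 CPM, and X17SI4 lay among the low cys libraries. Its log2 fold change was 0.52 (SE 0.27, 95% interval -0.08 to 1.12, adjusted p = 0.794 in edgeR, exact permutation p = 0.143). Kif20a, which carries the passenger complex to the central spindle, had 15, 9.35, 4.78 and 3.1 CPM against 13.9, 6.37 and 10.6 CPM. X17SI4 was its highest library, and the log2 fold change was 0.35 (SE 0.50, adjusted p = 0.861 in edgeR, exact permutation p = 0.543). Of the Kif20a exon bases, 33.2% overlap Cdc23 on the other strand. Kif11, which pushes the spindle poles apart, and Kif2c, which shortens microtubules, had 0.74 (SE 0.43) and 0.73 (SE 0.40), and the chromokinesin Kif4 had 0.51 (SE 0.40), with 15.1% of its exon bases shared with Pdzd11 on the other strand.

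Among the genes of spindle assembly and cytokinesis, 2 of 6 were higher at an unadjusted p under 0.05, against 2.66% of all genes tested. Ect2, the exchange factor that switches on RhoA at the cleavage furrow, had 13.4, 6.76, 5.73 and 9.07 CPM against 21.2, 11.7 and 18 CPM. X17SI4 alone reached into the low cys range. Ect2 differed from the other 33 in X1SI4, which was the second highest normal cys library for it instead of the lowest or next to lowest. Ect2 had a log2 fold change of 0.95 (SE 0.31, 95% interval 0.26 to 1.65), with an unadjusted p of 0.0124, the smallest of the 34, an adjusted p of 0.794 in edgeR and an exact permutation p of 0.0857. Anln, the anillin scaffold of the contractile ring, had 9.92, 4.99, 2.84 and 2.82 CPM against 12.8, 7.74 and 10.6 CPM. Its log2 fold change was 1.01 (SE 0.43, 95% interval 0.04 to 1.98), with an unadjusted p of 0.0436 and an adjusted p of 0.794 in edgeR, and an exact permutation p of 0.0857.

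Hmmr, a spindle protein first described as a hyaluronan receptor, had 12.2, 7.35, 3.36 and 3.39 CPM against 13.4, 6.06 and 9.59 CPM. X17SI4 and X32SI4 both exceeded X26SI4, and the log2 fold change was 0.56 (SE 0.47, adjusted p = 0.804 in edgeR, exact permutation p = 0.314). The remaining genes of this role were Tpx2, which activates Aurora A on the spindle, Nusap1, a microtubule-binding spindle protein, and Prc1, which bundles the microtubules of the central spindle. Their log2 fold changes were 0.59 (SE 0.37), 0.73 (SE 0.38) and 0.44 (SE 0.37).

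Per kilobase of exon (exon lengths of the deposited count table), the normal cys means were highest for Cdc20 (8.32 CPM per kb), Ccnb2 (8.29), Ccna2 (8.19), Ube2c (7.46) and Mki67 (6.64), and lowest for Cenpf (0.671) and Bub1 (0.777). Shares of single genes in the summed CPM of the 34 varied less between libraries than the sum itself. Each share divides a gene by a sum that holds it and the genes that vary with it, which by itself narrows the spread. The share of Mki67 in the summed CPM of the 34 genes was 14.1% to 16.7% over the 7 libraries, while the sum itself ranged from 216 to 836 CPM. The highest share was 1.39-fold the lowest in the median gene and under 1.5-fold in 23 of 34 genes. Ect2 took 4.19% in X1SI4 against 1.28% to 2.53% in the other libraries. The make-up was not the same on both diets. Without overlap, Bub1 (mean 0.73% on normal and 1.05% on low cys), Bub1b and Anln took a larger share on low cys. Ccnb2 (2.88% and 2.42%), Incenp, Nuf2 and Prc1 took a smaller share, again without overlap. Since shares of 1 sum depend on each other, these are given as a description with no test.

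Another 131 genes of G2 and mitosis, listed by their roles, showed the same direction less evenly. Their log2 fold change was above 0 in 115 of 131, with a median of 0.40, and 0 of 131 had an adjusted p under 0.05 in edgeR. At an unadjusted p under 0.05, 11 of 131 were higher, against 2.66% of all genes tested, and 2 of 131 were lower, against 2.83%, upon cystine restriction. By role, the median was 0.50 for 36 genes of spindle and cytokinesis, 0.43 for 24 genes of CDK1 control and G2 transcription, 0.40 for 27 genes of centromere and kinetochore, 0.40 for 21 genes of cohesin and condensin and 0.13 for 23 genes of checkpoint and APC/C subunits. The 5 higher genes of the spindle and of cytokinesis were Depdc1a, with a log2 fold change of 1.37 (SE 0.44), Aspm, which focuses spindle poles (1.10, SE 0.39), the augmin subunits Haus1 (0.81, SE 0.34) and Haus6 (0.50, SE 0.22), and Cep55, a protein of the midbody (0.75, SE 0.33). Depdc1a had 2.98, 1.82, 1.26 and 0.716 CPM against 6.28, 3.12 and 4.12 CPM, so that the diets did not overlap (exact permutation p = 0.0571). The low cys libraries lay all above the normal cys libraries in 5 of 131, against 3.32% of all genes tested. They lay all below in 1 of 131 (Pttg1), against 3.51%.

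Among condensin and cohesin genes, the condensin subunits Ncapg2 (0.97, SE 0.33), Smc2 (0.76, SE 0.29) and Smc4 (0.41, SE 0.16) and the cohesin regulator Pds5a (0.40, SE 0.14) had higher log2 estimates at an unadjusted p under 0.05. Knl1, the kinetochore scaffold that recruits BUB1, had a log2 fold change of 1.03 (SE 0.42), and Lin9, a subunit of the DREAM and B-MYB complexes named above, 0.65 (SE 0.27). The 2 genes in the other direction were Mad2l1bp, whose product turns the checkpoint off (-0.48, SE 0.17), and Pttg1, for securin, which restrains separase until anaphase (-0.37, SE 0.14). Pttg1 had 13.8, 14.3, 16.3 and 16.1 CPM on the normal and 11.7, 11.3 and 12 CPM on the low cystine diet, with no overlap (exact permutation p = 0.0286). It did not share the low values of the 34 genes in SI9 and X1SI4.

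Other gene lists moved with the 34 genes across the libraries, and their part in the values above was not tested. DNA replication genes (36, of S phase) summed to 488, 411, 308 and 233 CPM against 549, 324 and 458 CPM, the same order of libraries as the mitotic sum. Of the 36, 1 (Prim1) was higher at an unadjusted p under 0.05, against 2.66% of all genes tested. At that p 0 of the 36 were lower, against 2.83%, and their median log2 fold change was 0.42. The mitotic sum was 1.54, 1.28, 0.94 and 0.928 times the replication sum in the normal cys libraries and 1.52, 1.44 and 1.57 times in the low cys libraries. Paneth cell markers (8) were also lowest in X1SI4, with sums of 6472, 3421, 3410 and 966 CPM against 6836, 4049 and 7303 CPM. The log2 fold change of the Paneth cell markers was above 0 in 8 of 8, with a median of 0.78. Enterocyte markers (10) ran the other way, with a log2 fold change above 0 in 1 of 10 and a median of -0.41. Their sums were 32513, 35778, 55020 and 55850 CPM against 17555, 32805 and 34880 CPM. SI9 and X1SI4, the libraries with the least mitotic mRNA, thus had the most enterocyte mRNA, and X23SI4, with the most mitotic mRNA, had the least.

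Of the enterocyte markers, Apoa1 (log2 fold change -0.79, SE 0.29) and Krt20 (-0.41, SE 0.18) were lower at an unadjusted p under 0.05, and of 10 crypt base stem cell markers Slc12a2 (0.89, SE 0.19) was higher. The log2 fold change of the stem cell markers was above 0 in 8 of 10, with a median of 0.51. Their sum was 268, 178, 177 and 161 CPM against 247, 183 and 251 CPM, of which Axin2, with a log2 fold change of -0.43, made up 122 CPM in X17SI4. Among 7 CDK inhibitors, whose products hold the cell cycle back, Cdkn2c was higher at an unadjusted p under 0.05 (0.65, SE 0.26), and the median log2 fold change was -0.21. Goblet cell markers (7) summed to 12051 to 22072 CPM on the normal and 12065 to 13026 CPM on the low cystine diet.

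Lymphoid follicles of the ileum also hold dividing cells, the germinal centre B cells. Their 8 markers summed to 24.6, 29.8, 28.2 and 25.6 CPM against 26.8, 22.5 and 17.9 CPM, with Mef2b at 0 in all 7 libraries. B cell markers (9) summed to 11.1, 88.8, 71.1 and 9.79 CPM against 47.7, 83.2 and 13.2 CPM, and T cell markers (9) to 67.5 to 84.8 against 50.9 to 81 CPM. The 3 libraries with the least B cell mRNA were X1SI4, which had the least mitotic mRNA, and X17SI4 and X10SI4, which had high mitotic sums. The 10 stroma markers summed to 32.3 to 37.6 CPM on the normal and 45.8 to 53.3 CPM on the low cystine diet without overlap, with Col3a1, Dcn and Col6a1 higher at an unadjusted p under 0.05. The 6 smooth muscle markers summed to 12.1, 7.31, 4.57 and 2.34 CPM against 5.63, 38.2 and 14.4 CPM, with Des and Actg2 higher at an unadjusted p under 0.05, although muscle was not meant to be scraped off.

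**Figure D4:**
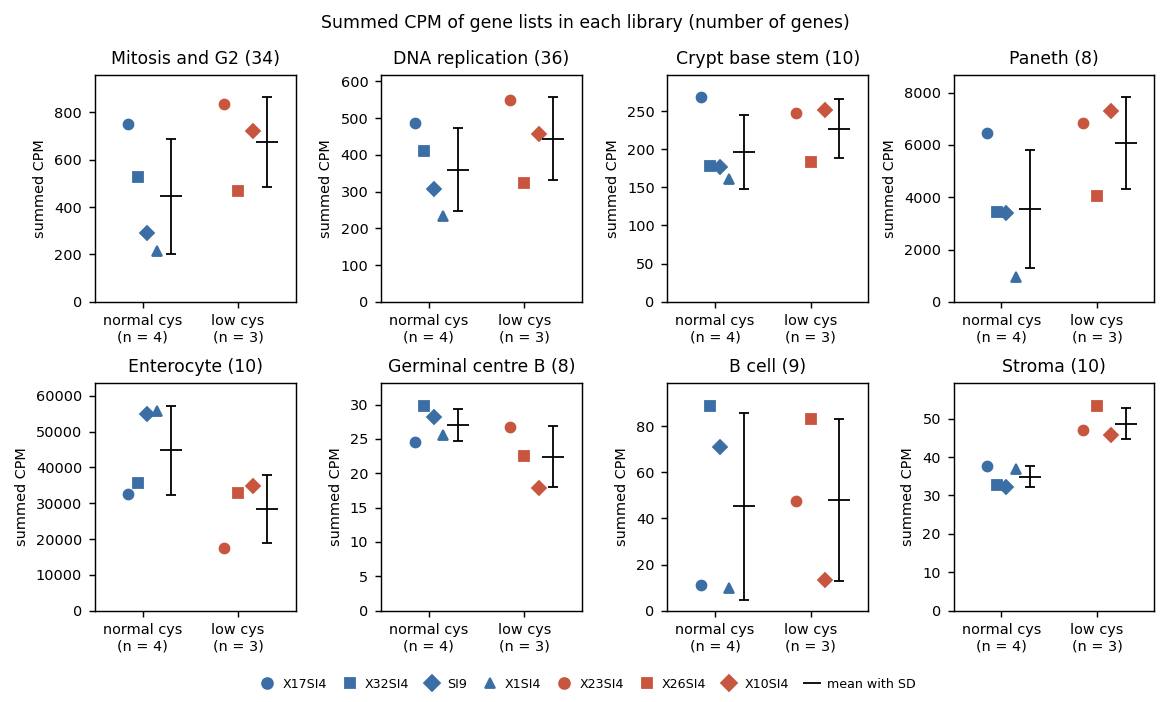
Summed CPM of the 34 genes and of 7 other lists in each library (points, with the shapes of the plot of single genes), with the mean and SD of each diet. The replication and Paneth panels repeat the low position of X1SI4, the enterocyte panel reverses it, and in the stroma panel the diets do not overlap.

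How many of the 34 genes passed an unadjusted p of 0.05 depended on single libraries, while the direction did not. Without the normal cys library X17SI4, 24 of 34 were higher at an unadjusted p under 0.05 in edgeR, against 6.3% of all genes tested in that fit, and the median log2 fold change was 1.00. Without the low cys library X23SI4, 0 of 34 were higher, against 1.16%, and the median was 0.42. The count was 2 without X32SI4 (against 3.02%), 1 without SI9 (1.45%), 1 without X1SI4 (3.42%), 1 without X10SI4 (1.54%) and 5 without X26SI4 (3.47%). The low cys libraries lay all above the normal cys libraries in 10 of 34 genes without X17SI4, against 8.55% of all genes tested, and in 10 of 34 without X26SI4, against 10.3%. With limma-voom on all 7 libraries, 8 of 34 were higher at an unadjusted p under 0.05, against 3.48% of all genes tested. In each of these fits 34 of 34 genes kept a log2 fold change above 0 and 0 of 34 had an adjusted p under 0.05. The fits share most of their libraries and the genes vary together, so these directions are not separate results. For Mki67 the log2 fold change ranged from 0.37 without X1SI4 to 0.93 without X17SI4, for Birc5 from 0.08 to 0.66 without the same libraries, and for Ect2 from 0.78 without X23SI4 to 1.23 without X17SI4.

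**Figure D5:**
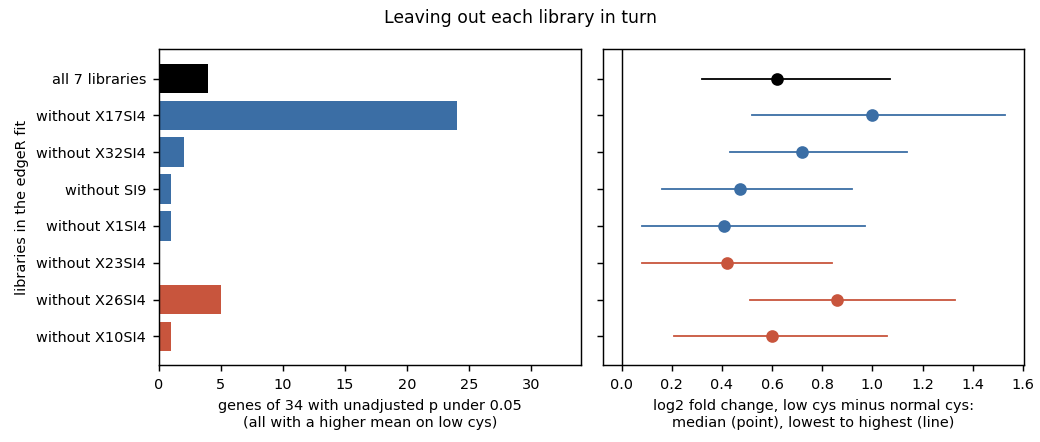
Left, the number of the 34 genes with an unadjusted p under 0.05 in edgeR when 1 library is left out (bars, blue for normal cys and red for low cys libraries, black for all 7). Right, the median (point) and range (line) of their log2 fold changes: the count reaches 24 without X17SI4 and 0 without X23SI4, and every range stays above 0.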

How the data were processed

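Per the study's methods and the labels, poly(A)-selected stranded libraries were sequenced in paired reads of 50 bases, trimmed with Trim Galore (0.6.5), cleared of ribosomal reads, mapped to GRCm38 by STAR and assigned to exons by featureCounts. The raw counts deposited by the authors were used as they stand. The strand setting and the handling of multi-mapping reads are not given in the sources used here, nor is a batch. Libraries were grouped by title, with 0 sample columns unused, and no pair was a duplicate (chi-square per degree of freedom 22.3 to 208).

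Counts were filtered with filterByExpr (edgeR 4.0.16, R 4.3.3, minimum count 10, minimum total 15), scaled by TMM and tested in a robust quasi-likelihood fit without covariates (prior count 2, BCV 25.5%), checked on simulated data. DESeq2 (1.42.0), limma-voom (limma 3.58.1), other scalings and filters and leaving out each library were the alternatives.

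The 34 genes and all lists were chosen with earlier results of these data known. Described in full are Mki67, Birc5 and, per role, the genes with the smallest and the largest edgeR p. Further mitotic genes are named by edgeR p (the first 12), with Cep55 as the 13th, and other lists by an unadjusted p under 0.05. Cep55, Mef2b, Axin2 and single genes given as extremes, were named after their values were seen. Gene positions, exon lengths and exon overlaps came from the deposited count table. Transcript sequences and the exons of the primers came from GENCODE M21, and promoter windows from RefSeq.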

Additional observations from a re-analysis of the deposited data

Results flagged for a closer look

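Among the 4 normal cys libraries, 60 values on the log2(CPM + 0.5) scale were examined for a library far from its nearest neighbor relative to the range (Dixon's test), and 0 of 60 were past the critical value, where chance gives 3. With 3 libraries, the low cys group was too small for this check.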

How the results depend on the processing

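The alternatives were 2 other scalings, 2 other filters, DESeq2, limma-voom and leaving out each library in turn. The direction held in 208 of 208 estimates of the 16 genes described in full over these 13 alternatives. These estimates are not independent, because the genes varied together and the fits share most of their libraries. The median log2 fold change of the 34 genes ranged from 0.60 to 0.79 with all libraries and from 0.41 to 1.00 with a library left out. In the main fit it was 0.62. The SD of the median level of the 34 genes between libraries of the same diet was 0.65 on the log2 scale. With scaling by library size alone the median log2 fold change of the 34 genes was 0.75, where that of all genes was 0.15 in place of 0.01. Genes with an adjusted p under 0.05 numbered 0 in edgeR (817 at an unadjusted p under 0.05), 16 with DESeq2, 0 with limma-voom and 0 to 1 with a library left out, the 1 being without X32SI4. None of these was among the 34 (0 of 34 in each). Of the 34, 4 passed an unadjusted p of 0.05 in edgeR, 8 with limma-voom and 0 to 24 with a library left out. The diets did not overlap in 0 of 34 genes, and in 0 to 10 with a library left out, the 10 being without X17SI4 and again without X26SI4. Of the other 131 mitotic genes 13 passed an unadjusted p of 0.05, 20 with limma-voom and 0 to 49 with a library left out (0 without X23SI4, 4 without SI9, 5 without X10SI4 and 49 without X17SI4). The count over all genes tested moved as well. It was 817 of 14869 in edgeR, 930 of 14869 with limma-voom and 258 of 15076 without X23SI4. Without SI9 it was 404 of 14742, without X10SI4 522 of 15164 and without X17SI4 1764 of 14786. The cause was not tested. No paired analysis was run, because each mouse received 1 diet or the other and the sources used here give no pairing between mice. The smallest count of any of the 34 genes was 19 (Ndc80 in X1SI4), and counting error was not separated from the spread between mice.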
